A study of Mus musculus with 9 samples.

Results

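The 10 genes Slc2a1, Hk2, Pfkfb3, Pgk1, Ldha, Bnip3, Egln3, Ndrg1, Pdk1 and Ankrd37 were taken by symbol from the 23944 genes of the deposited tables. They serve glucose uptake, glycolysis and the response to low oxygen, and RNA-seq of whole left lungs of adult wild-type mice gave their levels in 9 libraries, 3 per group. Naive lungs were from C57BL/6 mice that had no transplant. Cold-ischemia grafts were C57BL/6 lungs that spent 24 h at 0 °C and then 2 h with blood flow restored in a Balb/C recipient. Shock grafts had the same storage, strains and reperfusion, but their donors had first gone through 4 h of blood volume loss, at a mean arterial pressure of 15 ± 5 mmHg, and 20 h of recovery. All 6 grafts thus shared surgery, 24 h of cold storage, 2 h of reperfusion and a recipient of another strain, and no graft without storage was among the groups.

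When oxygen is short, the prolyl hydroxylases, of which Egln3 encodes one, no longer mark the alpha subunits of hypoxia-inducible factor (HIF) for removal through the von Hippel-Lindau protein. HIF then binds a short DNA core, written here as ACGTG or GCGTG, and raises transcription of glucose carriers, glycolytic enzymes, pyruvate dehydrogenase kinases and mitophagy genes. Inflammatory and growth signals also raise several of these genes, and glycolysis is the main energy source of neutrophils. A lung kept cold without blood flow can still hold oxygen in its air spaces.

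The group of 2 graft libraries is disputed. By the sample titles, which set the groups used here, they are cold-ischemia replicate 2 and shock replicate 3, but in the authors' deposited tables the former is a shock graft and the latter a cold-ischemia graft. Where a call of a gene named here differs between the groupings, it is given for both and, except for Pdk1 in shock grafts, without both libraries. All 3 naive libraries, and 0 of the 6 grafts, carry the record of another series in their labels, so in every comparison with naive lungs a batch cannot be told apart from the group. Total counts ran from 18913487 to 34986276 per library. In RNA of a whole lung, a change in the cells present and a change in RNA per cell cannot be told apart. The summed level of 12 neutrophil markers was 60.8 to 86.2 CPM in naive lungs and 1126 to 3152 CPM in grafts, and that of 10 monocyte and macrophage markers 873 to 1128 and 1571 to 2677 CPM. CPM are reads of a gene relative to a library size scaled by TMM, a method that assumes most genes to be level between libraries. Endothelial markers summed to 4231 to 4526 CPM in naive lungs and 2603 to 4324 CPM in grafts, and mesothelial markers to 237 to 297 and 27.0 to 79.6 CPM. Red cell markers summed to 21.4 to 214 and 155 to 967 CPM. By the edgeR test given below, 12 of 12 neutrophil markers were higher in grafts and 6 of 6 mesothelial markers lower. The monocyte and macrophage, endothelial and red cell sums hide mixed directions. Cd14 alone had a mean of 24.0 CPM in naive lungs and 641 CPM in grafts, while the monocyte markers Ccr2 and Cx3cr1 fell. By the same test, 4 of the 10 monocyte and macrophage markers were higher in grafts and 2 lower. Of 10 endothelial markers 1 was higher and 5 lower, and of 6 red cell markers 5 and 1. Among all genes tested 22.1% were higher and 19.7% lower. The 8 markers of alveolar type 2 cells, which define lung tissue, summed to 24086 to 26689 CPM in naive lungs and 18880 to 26853 CPM in grafts. Of these 0 were higher and 1 lower, Slc34a2, with a mean of 2415 CPM in naive lungs and 905 CPM in grafts. No marker of these lists was at 0 in every library. The part of cell content in the changes below was not tested.

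Promoter windows from RefSeq (build GRCm38.p6), 250 bases before to 50 bases after an annotated start, were at hand for 9 of the 10 genes, in 12 windows, with none for Ndrg1. The windows of 5 genes are printed below, 3 of genes that rose most in grafts and 2 of genes that did not pass the test, so that the HIF core can be seen in both. Each reads 5′ to 3′ along the gene, and capitals mark ACGTG or GCGTG, or their reverse complements CACGT and CACGC. Where cores overlap they form 1 run of capitals.
Hk2 (chr6:82774405-82774704, minus strand): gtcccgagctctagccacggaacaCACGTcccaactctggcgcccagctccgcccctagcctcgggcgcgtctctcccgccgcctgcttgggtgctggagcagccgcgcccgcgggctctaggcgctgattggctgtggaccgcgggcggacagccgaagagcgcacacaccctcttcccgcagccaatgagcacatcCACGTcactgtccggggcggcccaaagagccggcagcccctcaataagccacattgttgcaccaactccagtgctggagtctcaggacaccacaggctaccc
Pfkfb3 (chr2:11502041-11502340, minus strand): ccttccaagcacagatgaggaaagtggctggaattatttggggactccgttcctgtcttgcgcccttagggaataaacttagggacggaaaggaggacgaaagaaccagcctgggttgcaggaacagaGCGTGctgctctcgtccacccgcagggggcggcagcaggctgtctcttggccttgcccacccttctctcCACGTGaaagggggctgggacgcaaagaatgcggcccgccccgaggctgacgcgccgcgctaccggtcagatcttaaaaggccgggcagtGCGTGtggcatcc
Slc2a1 (chr4:119108495-119108794, plus strand): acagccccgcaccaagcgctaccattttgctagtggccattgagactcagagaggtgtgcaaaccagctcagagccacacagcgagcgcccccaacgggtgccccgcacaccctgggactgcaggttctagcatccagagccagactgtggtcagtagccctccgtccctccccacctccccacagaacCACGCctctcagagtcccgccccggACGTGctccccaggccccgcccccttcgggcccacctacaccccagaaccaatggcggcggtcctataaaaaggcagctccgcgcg
Bnip3 (chr7:138909457-138909756, minus strand): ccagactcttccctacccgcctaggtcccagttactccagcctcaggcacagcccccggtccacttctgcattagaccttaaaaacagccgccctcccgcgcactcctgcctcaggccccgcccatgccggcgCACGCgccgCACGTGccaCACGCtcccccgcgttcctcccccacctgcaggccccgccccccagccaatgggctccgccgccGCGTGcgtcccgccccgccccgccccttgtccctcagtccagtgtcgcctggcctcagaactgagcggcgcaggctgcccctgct
Pdk1 (chr2:71872974-71873273, plus strand): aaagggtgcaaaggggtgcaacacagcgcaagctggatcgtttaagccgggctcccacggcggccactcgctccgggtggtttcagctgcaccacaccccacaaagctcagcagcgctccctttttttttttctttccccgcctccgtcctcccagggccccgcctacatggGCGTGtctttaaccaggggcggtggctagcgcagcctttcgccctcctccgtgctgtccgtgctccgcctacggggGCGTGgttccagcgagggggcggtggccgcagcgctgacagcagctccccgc
The core stood at 2 places in the windows of Hk2, Slc2a1 and Pdk1, at 3 in that of Pfkfb3 and at 4 in that of Bnip3. At Hk2 both places read ACGTG, at Pdk1 both read GCGTG, and at Slc2a1 there was 1 of each. All 9 genes had the core in at least 1 window, and 11 of the 12 windows held it. Among 32851 windows of the same length, 43.8% held the core on either strand, 17.2% at 2 or more places and 6.4% at 3 or more. ACGTG alone was in 19.6% of windows. The palindrome CACGTG, which is also the E-box of other factors, was in 7.2%, and the windows of Pfkfb3 and Bnip3 each held 1. Among the windows not printed, an Ldha window held 5 places, where 0.7% of all windows held 5 or more, and the other Ldha window and that of Pgk1 held 2 each. That of Ankrd37 held 3, that of Egln3 and the second of Pfkfb3 held 1 each, and the second of Pdk1 held 0. The core was therefore present in genes that rose and in genes that did not pass the test. A match of letters is a description and says nothing of binding in these lungs.

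In grafts, 6 of the 10 genes rose against naive lungs and 0 fell, by edgeR's quasi-likelihood test at an adjusted p under 0.05. Glucose carrier, hexokinase and the activator of phosphofructokinase rose most, Ndrg1 followed, and the later glycolytic enzymes Pgk1 and Ldha rose by less. The mitophagy gene Bnip3, the hydroxylase gene Egln3, the pyruvate dehydrogenase kinase gene Pdk1 and Ankrd37 did not pass. The share of all 15834 genes tested that passed in the same comparison was 22.1% higher and 19.7% lower. The median log2 fold change was 0.69 over the 10 genes and -0.05 over all genes tested. All 10 genes passed the filter on low counts, which Ankrd37 met with 3 graft and 3 naive libraries and the other 9 genes with all 9 libraries. P-values measure the spread between these libraries, since the labels do not say which animal each came from.

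**Figure D1:**
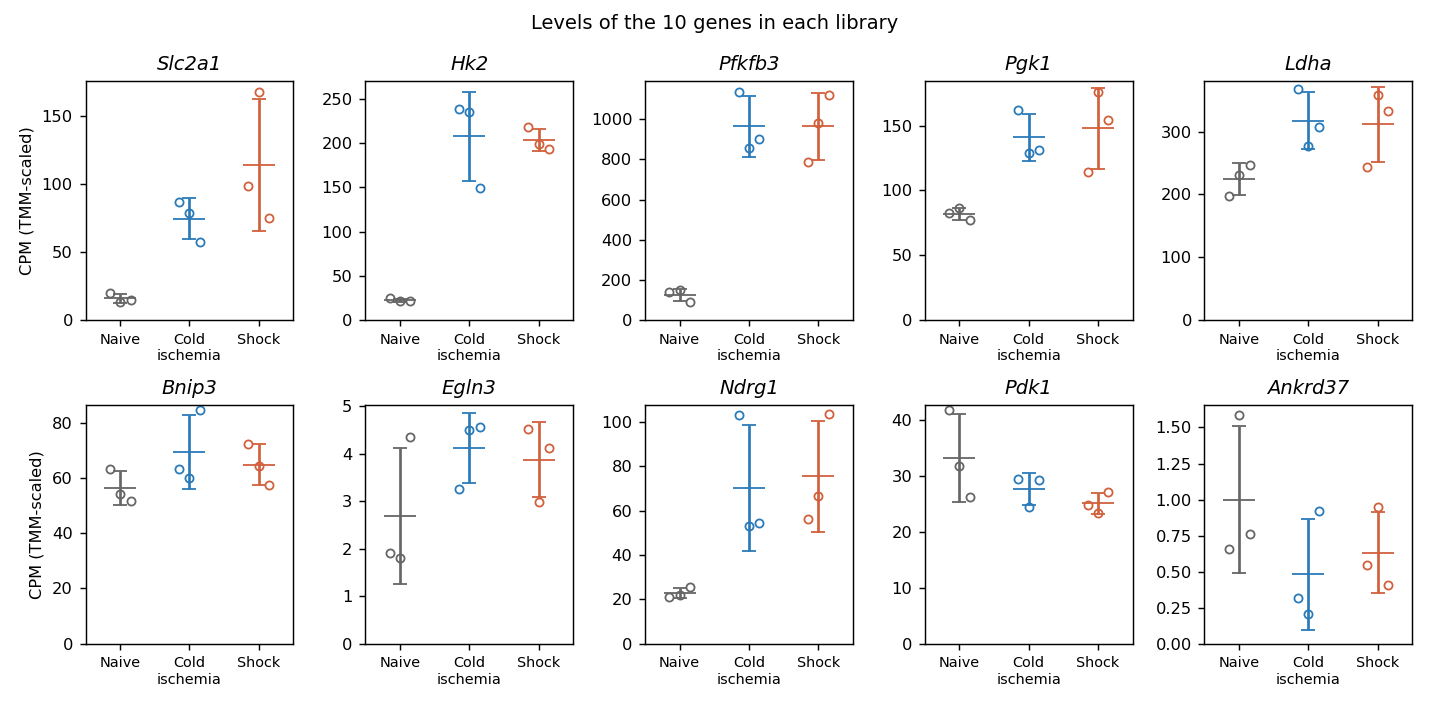
Level of each of the 10 genes in every library, as CPM on TMM-scaled library sizes (vertical axis, from 0, with its own range per gene). Open circles are the 3 libraries of a group, short lines and bars the group's mean ± SD. Hk2 had the largest log2 fold change, with naive lungs at 21.2 to 24.5 CPM and grafts at 149 to 239 CPM. Naive lungs and grafts overlap for Ldha, Bnip3, Egln3, Pdk1 and Ankrd37.

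Slc2a1 (ENSMUSG00000028645, chromosome 4, 119108711 to 119137330 of mm10, plus strand) encodes GLUT1, the carrier through which many cells take up glucose at rest. Its level was 19.7, 13.5 and 15.1 CPM in naive replicates 1, 2 and 3, 87.1, 79.0 and 57.8 CPM in the cold-ischemia grafts and 98.9, 168 and 75.1 CPM in the shock grafts. Every graft lay above every naive lung, and shock replicate 2 was the highest library by a wide margin. The log2 fold change of grafts against naive lungs, on a scale where 1 is a 2-fold difference, was 2.51 ± 0.28 (SE, adjusted p = 5.76e-05). Without shock replicate 2 it was 2.32. Group means were 16.1 ± 3.23 CPM (SD, n = 3) in naive lungs and 94.4 ± 38.7 CPM (SD, n = 6) in grafts.

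Hk2 (ENSMUSG00000000628, chromosome 6, 82725025 to 82774454, minus strand) encodes hexokinase 2, the inducible enzyme that traps glucose in the cell by phosphorylation. It stood at 24.5, 21.2 and 21.7 CPM in the naive lungs, 239, 235 and 149 CPM in the cold-ischemia grafts and 218, 200 and 194 CPM in the shock grafts. The naive lungs were close together, and the lowest graft, cold-ischemia replicate 3, was still far above them. The rise of 3.19 ± 0.18 (SE, adjusted p = 1.04e-06) exceeded that of the other 9 genes. Hk1, the hexokinase of most resting tissues, rose by 1.25 and Hk3, a hexokinase of myeloid cells, by 1.85. Within a library, where no scaling enters, there were 0.245 to 0.331 reads of Hk2 per read of Hk1 in naive lungs and 0.927 to 1.23 in grafts.

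Pfkfb3 (ENSMUSG00000026773, chromosome 2, 11471430 to 11502101, minus strand) encodes the enzyme that makes fructose 2,6-bisphosphate, the strongest activator of phosphofructokinase. Its level was 139, 148 and 91.7 CPM in naive lungs, 1138, 857 and 901 CPM in cold-ischemia grafts and 788, 983 and 1123 CPM in shock grafts. Naive replicate 3 was the lowest and no graft came near the naive range. It rose by 2.94 ± 0.22 (SE, adjusted p = 4.87e-06). Pfkfb4, a related enzyme, rose by 0.68, and reads of Pfkfb3 per read of Pfkfb4 went from between 2.24 and 4.23 in naive lungs to between 12.8 and 20.5 in grafts.

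Pgk1 (ENSMUSG00000062070, chromosome X, 106187100 to 106203699, plus strand) encodes phosphoglycerate kinase, which makes ATP in the lower part of glycolysis. It had 82.6, 86.3 and 77.0 CPM in naive lungs, 162, 129 and 131 CPM in cold-ischemia grafts and 114, 176 and 154 CPM in shock grafts. Every graft was above the naive lungs, with the smallest margin at shock replicate 1. It rose by 0.82 ± 0.15 (SE, adjusted p = 0.00159). Of the 3 annotated pseudogenes named after Pgk1, 1 was in the tables, with at most 6 reads in a library.

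Ldha (ENSMUSG00000063229, chromosome 7, 46841475 to 46855627, plus strand) encodes the lactate dehydrogenase subunit that favours making lactate from pyruvate. Levels were 197, 231 and 247 CPM in naive lungs, 368, 278 and 307 CPM in cold-ischemia grafts and 244, 358 and 334 CPM in shock grafts. Shock replicate 1 lay below naive replicate 3, so the groups overlapped. The log2 fold change of 0.48 ± 0.16 (SE) passed narrowly, at adjusted p = 0.0312, and did not pass without naive replicate 1 (adjusted p = 0.148), naive replicate 2 (0.0882) or cold-ischemia replicate 1 (0.063). It also did not pass on 2 of the 4 scalings given further on. Ldhb, the partner subunit, stood at -0.28 (adjusted p = 0.0708) and passed as lower with the grouping of the deposited tables (adjusted p = 0.0449), with upper-quartile scaling (0.00558) and with library totals (0.00131), but not without both disputed libraries (0.0648). Reads of Ldha per read of Ldhb were 1.63 to 2.11 in naive lungs and 2.81 to 4.39 in grafts. The 2 pseudogenes named after Ldha held at most 3 reads in a library.

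Ndrg1 (ENSMUSG00000005125, chromosome 15, 66929321 to 66969640, minus strand) encodes a cytoplasmic protein induced by stress and used as a marker of hypoxia in tumours. It stood at 21.2, 21.9 and 25.5 CPM in naive lungs, 103, 53.2 and 54.5 CPM in cold-ischemia grafts and 56.1, 66.8 and 104 CPM in shock grafts. The grafts lay clear of the naive lungs, and 1 graft in each group, cold-ischemia replicate 1 and shock replicate 3, was well above the rest. The latter is 1 of the 2 disputed libraries. Its rise was 1.67 ± 0.27 (SE, adjusted p = 0.00062). The related genes Ndrg2, Ndrg3 and Ndrg4 stood at -0.11, -0.32 and -0.29 and did not pass by the titles and TMM. Ndrg3 (adjusted p = 0.0572 there) passed as lower with the grouping of the deposited tables (0.0406), upper-quartile scaling (0.0058) and library totals (0.00174), but not without both disputed libraries (0.0726). Ndrg2 passed as lower with library totals only (adjusted p = 0.0354). Exons of Ndrg1 share 419 bases with the antisense gene Gm17035 and 137 with Gm2895. The sources do not say whether the libraries kept strand, so such reads may not be separable.

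Bnip3 (ENSMUSG00000078566, chromosome 7, 138890836 to 138909519, minus strand) encodes a protein of the outer mitochondrial membrane that acts as a receptor for mitophagy. It had 63.2, 54.1 and 51.5 CPM in naive lungs, 63.2, 59.9 and 84.7 CPM in cold-ischemia grafts and 72.3, 64.4 and 57.6 CPM in shock grafts. The groups overlapped, and the log2 fold change of 0.25 (95% interval -0.07 to 0.57, adjusted p = 0.186) did not pass. Its homologue Bnip3l fell by 0.37 (adjusted p = 0.0211), a call lost without naive replicate 1 or 2, and reads of Bnip3 per read of Bnip3l were 0.271 to 0.331 in naive lungs and 0.385 to 0.493 in grafts. An antisense gene, Gm45507, shares 504 exon bases with Bnip3.

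Egln3 (ENSMUSG00000035105, chromosome 12, 54178981 to 54203860, minus strand), the hydroxylase gene that HIF itself induces in many cells, was low throughout. It stood at 1.92, 1.81 and 4.35 CPM in naive lungs, 3.26, 4.51 and 4.57 CPM in cold-ischemia grafts and 4.52, 2.99 and 4.11 CPM in shock grafts. Naive replicate 3 lay within the grafts and the other naive lungs below them. Its change of 0.56 (95% interval -0.14 to 1.25, adjusted p = 0.18) did not pass. Without naive replicate 3 it was 1.10 and passed (adjusted p = 0.0147).

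Pdk1 (ENSMUSG00000006494, chromosome 2, 71873224 to 71903858, plus strand) encodes a kinase that inhibits pyruvate dehydrogenase and so keeps pyruvate out of the mitochondria. Levels were 41.7, 31.7 and 26.3 CPM in naive lungs, 29.4, 24.4 and 29.2 CPM in cold-ischemia grafts and 24.8, 23.4 and 27.1 CPM in shock grafts. Naive lungs 1 and 2 were above every graft and naive lung 3 among them. The log2 fold change of -0.34 (95% interval -0.68 to 0.01, adjusted p = 0.104) did not pass, and without naive replicate 3 it was -0.48 and passed (adjusted p = 0.0397). The other kinases of this family moved apart: Pdk4, the kinase raised by fasting and glucocorticoids, rose by 3.03, Pdk3 rose by 0.49 and Pdk2 fell by 1.04. There were 0.934 to 3.42 reads of Pdk1 per read of Pdk4 in naive lungs and 0.136 to 0.274 in grafts.

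Ankrd37 (ENSMUSG00000050914, chromosome 8, 45996902 to 45999867, minus strand), an ankyrin repeat gene induced by HIF in cultured cells, was near the limit of these libraries. It had 23, 35 and 30 reads in naive lungs, 7, 5 and 20 in cold-ischemia grafts and 13, 19 and 9 in shock grafts, or 0.658, 1.58 and 0.759 CPM, 0.317, 0.205 and 0.923 CPM, and 0.544, 0.947 and 0.407 CPM. The groups overlapped. Counting alone gives 5 reads an exact 95% Poisson interval of 1.62 to 11.7. The log2 fold change was -0.84 (95% interval -1.95 to 0.28, adjusted p = 0.207), and without naive replicate 2 it was -0.37. Exons of Ankrd37 in the GENCODE annotation share 349 bases with Lrp2bp and 57 with Ufsp2, both on the opposite strand, so its reads are uncertain. That gene model reaches beyond the deposited one, which has 927 exon bases, and how many of the 927 are shared was not counted.

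In 5 genes, Slc2a1, Hk2, Pfkfb3, Pgk1 and Ndrg1, all 6 grafts lay above all 3 naive lungs, and in 0 genes all lay below. Among the genes tested, 20.9% had all grafts above and 20% all grafts below. Leaving out both disputed libraries or grouping them as the deposited tables do left 6 of the 10 called higher in grafts and 0 lower. Among all 15834 genes tested, 3744 were higher and 3600 lower with the grouping of the deposited tables. Without both disputed libraries, 3477 of 16068 genes were higher and 3227 lower.

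Against naive lungs each graft group gave the same 5 calls, for Slc2a1, Hk2, Pfkfb3, Pgk1 and Ndrg1. In cold-ischemia grafts 17.5% of genes tested rose and 13.1% fell, and in shock grafts 22% rose and 17.9% fell. These comparisons share the naive lungs. In cold-ischemia and shock grafts, in that order, the log2 fold changes were 3.21 and 3.18 for Hk2, 2.94 and 2.94 for Pfkfb3, and 2.21 and 2.82 for Slc2a1. Those of Ndrg1 were 1.62 and 1.72, and those of Pgk1 0.78 and 0.85. Ldha was close to the threshold in both, at 0.50 (adjusted p = 0.0595) and 0.47 (adjusted p = 0.0592). It passed in cold-ischemia grafts with the grouping of the deposited tables (0.58, adjusted p = 0.0178) and in neither group without both disputed libraries (adjusted p = 0.0574 and 0.116). With the grouping of the deposited tables Pdk1 passed as lower in shock grafts (-0.46, adjusted p = 0.0411), against -0.41 (adjusted p = 0.0972) by the titles. Its value there without both disputed libraries is not given here. In the authors' deposited tables, with their own grouping, 6 of the 10 genes passed in cold-ischemia grafts, Ldha among them (0.58, adjusted p = 0.000113). In shock grafts 5 passed there, and Ldha was at 0.42 (adjusted p = 0.0844). The share of all genes that passed in those tables is not given here, so these 2 counts have no background beside them.

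**Figure D2:**
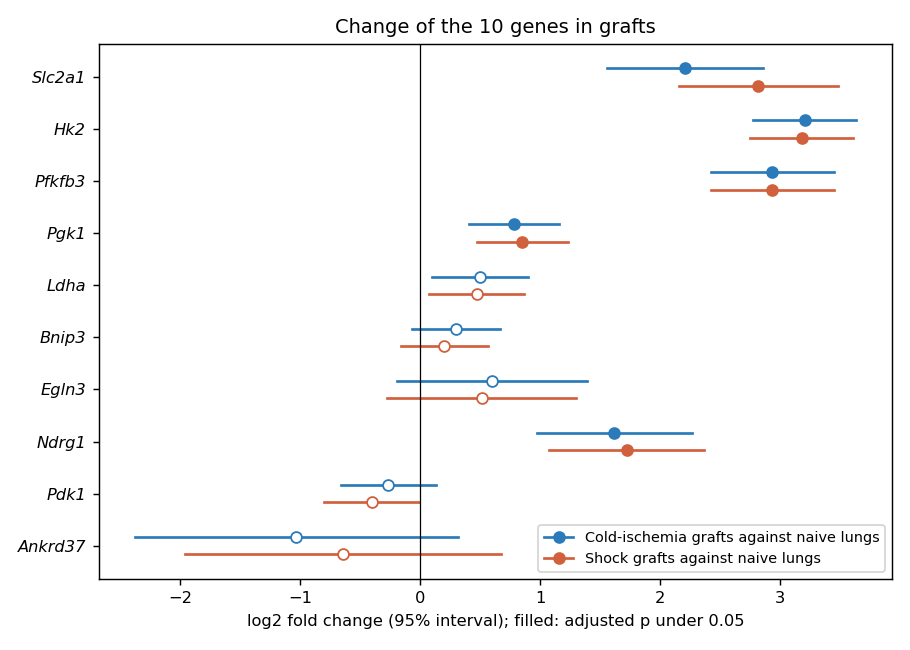
Log2 fold change (horizontal axis) of each of the 10 genes in cold-ischemia grafts (blue) and shock grafts (orange) against the same 3 naive lungs, with 95% intervals from the edgeR fit. Filled points passed an adjusted p of 0.05; Hk2, Pfkfb3, Slc2a1, Ndrg1 and Pgk1 did in both groups, and the intervals of Bnip3, Egln3 and Ankrd37 cross 0 in both.

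Compared per length, the order of the 10 genes changed. The authors' deposited FPKM, reads relative to the length of the gene and the reads of the library, put Ldha first in naive lungs at 148 ± 13.9 (SD, n = 3), then Pgk1 at 52.1 ± 3.98, Bnip3 at 37.3 ± 4.80 and Pfkfb3 at 28.9 ± 7.41. Pdk1 (7.46 ± 1.92), Slc2a1 (7.19 ± 1.54) and Ndrg1 (6.54 ± 0.50) followed with ranges that overlapped, as did those of Bnip3 and Pfkfb3. Hk2 (4.73 ± 0.44) stood above Ankrd37 (1.25 ± 0.65) and Egln3 (1.16 ± 0.59), which did not separate.
In grafts Pfkfb3 was first at 176 ± 25.9 FPKM (SD, n = 6), with Ldha at 165 ± 24.8 in an overlapping range, and Pfkfb3 was above Ldha in 5 of 6 grafts. Pgk1 (73.4 ± 11.4) came next, then Bnip3 (35.4 ± 5.84), Hk2 (34.5 ± 5.16) and Slc2a1 (33.4 ± 13.3), whose ranges overlapped. Ndrg1 (16.7 ± 5.41) overlapped with Slc2a1. Pdk1 (4.72 ± 0.52), Egln3 (1.40 ± 0.26) and Ankrd37 (0.559 ± 0.319) closed the order without overlap. Hk2 thus moved from below Bnip3 to the same range.

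The same change shows in the reads that the 10 genes divide among them, a quantity that no scaling between libraries touches. Pfkfb3 held 16.3% to 24.2% of these reads in naive lungs and 48.1% to 54.2% in grafts, and Hk2 3.47% to 4.14% and 8.66% to 13.6%. Ldha went from between 33.4% and 44.1% to between 15.1% and 17.9%, while its own level rose by 0.48 with TMM. Pgk1 took 13.7% to 14.1% and then 7.04% to 8.61%, Bnip3 8.86% to 10.7% and then 2.78% to 4.92%, and Pdk1 4.68% to 7.06% and then 1.14% to 1.70%. None of these 6 shares overlapped between naive lungs and grafts, nor did those of Egln3 and Ankrd37, while that of Ndrg1 did. The shares of a library sum to a fixed total, so a rise in that of Pfkfb3 lowers the others. They are therefore not separate results per gene. Egln3, Pgk1 and Bnip3 lost share while their log2 fold changes with TMM were 0.56, 0.82 and 0.25. Slc2a1 shares of 2.21% to 3.34% and 3.36% to 8.24% lay just apart. For 1 read of Pdk1 there were 3.32 to 4.66 reads of Pfkfb3 in naive lungs and 30.9 to 42.1 in grafts.

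**Figure D3:**
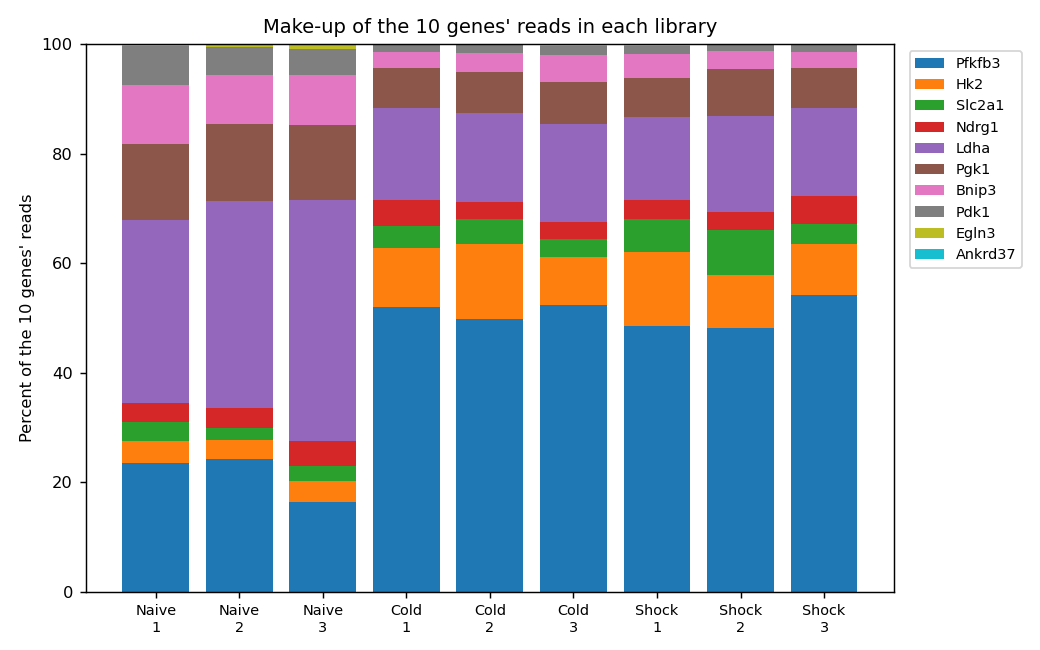
Percent of the 10 genes' summed reads held by each gene (stacked bars, vertical axis from 0 to 100) in each of the 9 libraries, by group and replicate of the titles. Pfkfb3 fills 48.1% to 54.2% of each graft bar against at most 24.2% of a naive bar, and Ldha at most 17.9% against at least 33.4%; Egln3 and Ankrd37 are too small to see in most bars.

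How far the smaller changes reach depends on what is held level between libraries. The median log2 fold change of all genes, grafts against naive lungs, was -0.05 with TMM, -0.03 with the size factors of DESeq2, -0.25 with upper-quartile scaling and -0.37 with library totals alone, a setting added after the data were seen. TMM factors were 1.13 to 1.18 in naive libraries and 0.90 to 0.97 in grafts. Of all genes called, 52.8% were higher with TMM and 34.8% with upper-quartile scaling and 26.9% with library totals. Slc2a1, Hk2, Pfkfb3, Pgk1 and Ndrg1 passed as higher under all 4. Ldha did not pass with upper-quartile scaling (0.28, adjusted p = 0.149) or library totals (0.16, adjusted p = 0.384), and under these Pdk1 passed as lower (-0.54, adjusted p = 0.0172, and -0.66, adjusted p = 0.00556). Bnip3 turned from 0.25 to -0.07 with library totals. Relative to the median gene, the changes under the 4 scalings were 0.53 to 0.54 for Ldha, 0.30 for Bnip3 and -0.29 to -0.28 for Pdk1. A change of scaling moves every gene, the median gene included, by nearly the same amount. The closeness of these values therefore follows from the method and is no added support.

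Further genes of the pathway were read from 5 lists drawn up by function, with earlier results of these data known. Their counts with TMM stand against 22.1% higher and 19.7% lower among all genes tested, and the part of that choice in them was not tested. With upper-quartile scaling 2689 of the 15834 genes tested were higher and 5029 lower, and with library totals 2308 and 6267. List counts under these 2 scalings stand against those numbers. Of 10 genes of oxygen sensing and HIF subunits, 2 rose and 3 fell in grafts, with a median log2 fold change of -0.17. Hif1a, the subunit made in most cells, had 62.0, 71.7 and 64.7 CPM in naive lungs, 304, 300 and 218 CPM in cold-ischemia grafts and 341, 401 and 287 CPM in shock grafts. It rose by 2.21 ± 0.17 (SE, adjusted p = 5.43e-06), with every graft above every naive lung. Epas1, which encodes the HIF-2 alpha subunit and is high in lung endothelium, was at 0.03 (adjusted p = 0.93), and Arnt, the shared partner subunit, at 0.20 (adjusted p = 0.185). The hydroxylase gene Egln2 rose by 0.49, while Egln1, the hydroxylase that sets HIF levels in most cells, fell by 0.51. Vhl, whose protein directs the removal of HIF, fell by 0.46, and Cited2, an inhibitor of HIF, fell by 0.84. With upper-quartile scaling or library totals Egln2 did not pass (0.29 and 0.17), and Egln1, Vhl and Cited2 were lower under all 4 scalings. Without naive replicate 1 or 2, 1 gene of the list rose.

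Of 24 other HIF target genes, 7 rose and 5 fell, with a median of 0.04, close to that of all genes. Adm, which encodes the vasodilator adrenomedullin, rose by 4.15, and Bhlhe40, a transcription repressor, by 2.11. Ero1l, an oxidase of protein folding, rose by 0.71 and Rbpj, the DNA-binding factor of Notch signalling, by 0.78. Among those that fell were Narf (-1.41), Vldlr, a lipoprotein receptor (-0.70), the mitochondrial gene Fam162a (-0.61) and Bnip3l, given above. Vegfa, the endothelial growth factor, was at 0.20 (adjusted p = 0.331). The other 12 genes of the list did not pass. Shares higher and lower were thus near those of all genes tested, and the split is no result about the list. Upper-quartile scaling gave 6 higher and 8 lower, and library totals 5 and 9, settings in which the calls of all genes also leaned lower. The number lower was 1 without naive replicate 2, 2 without naive replicate 1, and 3 without naive replicate 3 or without cold-ischemia replicate 2.

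Of 27 other glycolytic enzymes and carriers of sugar or lactate that were tested, 12 rose and 0 fell, with a median of 0.40. The 3 largest rises were of carriers, with Slc2a6, a sugar carrier of lysosomes in macrophages, at 4.04, Slc16a3, which exports lactate, at 3.17 and the glucose carrier Slc2a3 at 2.29. Hk1 and Hk3 are given above. Gapdh rose by 0.67 and Pkm, the pyruvate kinase gene, by 0.68. With library totals Gapdh, Pkm and Pfkfb4 no longer passed (0.34, 0.36 and 0.36), and the list had 7 higher and 5 lower, while upper-quartile scaling gave 10 and 2. Slc2a6, Slc16a3, Slc2a3, Hk1 and Hk3 rose under all 4 scalings.

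Of 11 genes of pyruvate entry into mitochondria, 2 rose and 2 fell, with a median of 0.22. The kinase genes are given above, and the phosphatase gene Pdp2 fell by 0.71, with 3.82 CPM in grafts and 6.26 CPM in naive lungs. The number lower was 1 without any 1 of naive replicates 1 and 2, cold-ischemia replicates 1 and 3 and shock replicates 2 and 3. Pdk3 passed with upper-quartile scaling (0.29) but not with library totals (0.17). Genes of the pyruvate dehydrogenase complex itself, Pdha1, Pdhb, Dlat and Pdhx, were at -0.01, 0.35, -0.08 and 0.22 and did not pass by the titles and TMM. Pdhb (adjusted p = 0.081 there) passed as higher with the grouping of the deposited tables (0.0407) and without both disputed libraries (0.0229). With library totals Pdha1 (-0.33, adjusted p = 0.0486) and Dlat (-0.41, adjusted p = 0.0157) passed as lower. Upper-quartile scaling gave 2 higher and 3 lower in this list, and library totals 1 and 5. Of the 5 relatives of Ndrg1 and Bnip3, 0 rose and 1, Bnip3l, fell. The number lower was 2 with the grouping of the deposited tables, 3 with upper-quartile scaling and 4 with library totals, and it was 2 without shock replicate 1 or without shock replicate 3 and 0 without naive replicate 1 or 2. The 4 genes of the complex, Ldhb and the relatives of Ndrg1 were named after their values were seen.

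**Figure D4:**
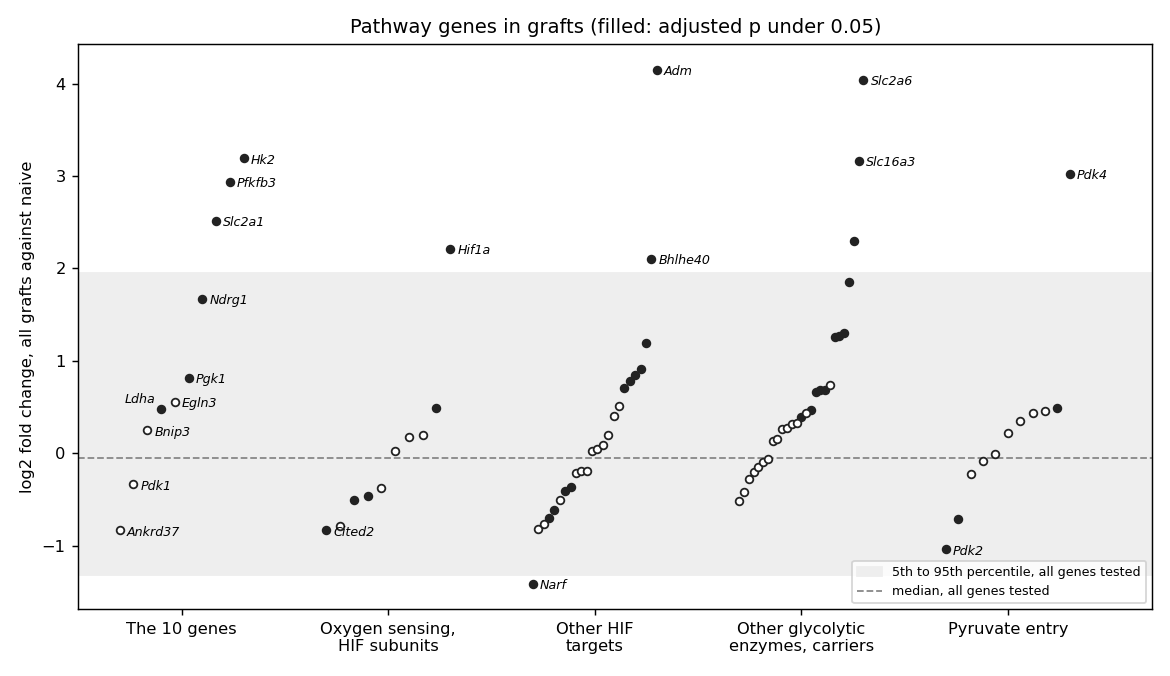
Log2 fold change of all grafts against naive lungs (vertical axis) for the 10 genes and 4 lists of pathway genes, 1 point per gene, sorted within each list. Filled points passed an adjusted p of 0.05; the band spans the 5th to 95th percentile and the dashed line the median (-0.05) of all 15834 genes tested. The points above the band are Hk2, Pfkfb3, Slc2a1, Hif1a, Adm, Bhlhe40, Slc2a6, Slc16a3, Slc2a3 and Pdk4.

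Shock grafts were compared with cold-ischemia grafts to see what shock in the donor added to storage and reperfusion. None of the 10 genes differed by edgeR's adjusted p, 0 of the 10 had an unadjusted p under 0.05, and 0% of the 15834 genes tested passed. Over all genes 1152 (7.28%) had an unadjusted p under 0.05, and DESeq2 called 8, with 0 of the 10 genes among them. Of the pathway lists, 0 genes passed. The largest of the 10 differences above 0 was that of Slc2a1, at 0.61 (95% interval -0.01 to 1.23, adjusted p = 0.671). Cold-ischemia grafts had 74.6 ± 15.1 CPM of Slc2a1 and shock grafts 114 ± 48.4 CPM (SD, n = 3 each), in overlapping ranges, and without shock replicate 2 the difference was 0.22. Shock replicate 2 had the highest sum of neutrophil markers (3152 CPM) and the lowest of endothelial markers (2603 CPM), and the part of either in its Slc2a1 level was not tested.

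Hk2 differed by -0.03 (95% interval -0.42 to 0.37), Pfkfb3 by -0.001 (-0.48 to 0.47), Pgk1 by 0.07 (-0.30 to 0.45) and Ldha by -0.03 (-0.42 to 0.37). By the titles, the intervals of these 4 glycolytic genes reached 0.48 at most on either side. Bnip3 was at -0.10 (-0.46 to 0.27) and Pdk1 at -0.14 (-0.54 to 0.26). The intervals of Ndrg1 (0.10, from -0.52 to 0.73), Egln3 (-0.09, from -0.87 to 0.70) and Ankrd37 (0.39, from -1.01 to 1.79) were wider. These intervals are not adjusted for the number of genes.

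With the grouping of the deposited tables, 0.783% of genes passed (124 genes), and without both disputed libraries 0.243% (39 of 16068), with 0 of the 10 genes among them in either case. Slc2a1 then stood at 0.65 (95% interval 0.06 to 1.24, adjusted p = 0.218) and 0.88 (0.20 to 1.56, adjusted p = 0.172). Ndrg1 changed sign, from 0.10 by the titles to -0.57 (-1.06 to -0.08, adjusted p = 0.199) and -0.36 (-0.98 to 0.26, adjusted p = 0.504). Its 2 high grafts, cold-ischemia replicate 1 and shock replicate 3, fall in 1 group in the deposited tables and in separate groups by the titles. Over all settings run, the lowest difference between shock and cold-ischemia grafts was -0.267 for Pfkfb3 and -0.197 for Ldha. Both lay below the range with any 1 library left out. In the authors' deposited table of this comparison Slc2a1 was at 0.54 (adjusted p = 0.235) and Ndrg1 at -0.47 (adjusted p = 0.281), and 0 of the 10 genes passed. Pfkfb3 was at -0.24 there and Ldha at -0.17. The share of all genes that passed in that table is not given here, so its count has no background beside it.

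**Figure D5:**
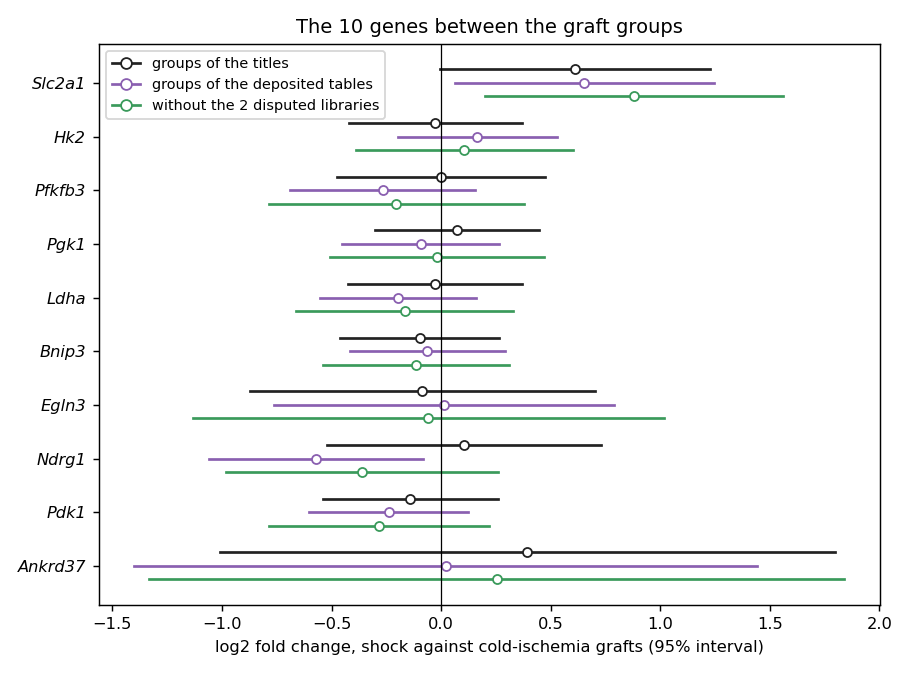
Log2 fold change of shock against cold-ischemia grafts (horizontal axis) for each of the 10 genes, with 95% intervals, in the groups of the titles, in the groups of the deposited tables and without the 2 disputed libraries. No point passed an adjusted p of 0.05, so all are open; Ndrg1 moves from 0.10 to -0.57 with the grouping of the tables, and Slc2a1 is above 0 in all 3 settings.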

How the data were processed

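Read counts per gene in 3 tables, deposited by the authors, were joined by gene identifier; the 9 libraries that stand in more than 1 table held 0 differing counts. The deposited FPKM equalled count over gene length and library total. Normalized counts, deposited by the authors as a signal scaled by library, were not used. The log2 fold changes and the p-values with adjusted p in these tables are the authors' deposited results. The build mm10 and the tools HTSeq, STAR, STAR-Fusion, edgeR and DESeq2 are named per the submitters' processing notes, while versions and roles are not given in the sources used here. Libraries were made with a NEBNext Ultra II kit, per the labels' protocols.

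Genes were tested two-sided with edgeR 4.0.16 in R 4.3.3 (quasi-likelihood, TMM, filterByExpr with a minimum count of 10), with all 9 libraries in 1 fit, a mean per title group and 6 residual degrees of freedom. All grafts stand for the mean of the 2 graft groups. Benjamini-Hochberg adjustment ran over 15834 genes, and 0.05 was the threshold. The test was tried on simulated counts first. A gene with 0 reads could have had up to 3 reads, or 0.0759 to 0.149 CPM. Intervals of counts cover counting error only. Named genes were the 10, a fixed set of pathway genes and up to 4 called genes per list and direction with the smallest adjusted p. The 10 genes and all lists were chosen with earlier results of these data known. Alternatives were other scalings, DESeq2 1.42.0, no filter, fewer groups, a replicate block, both groupings and leaving out each library. Figures were drawn with matplotlib 3.10.9.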

Additional observations from a re-analysis of the deposited data

Results flagged for a closer look

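Slc2a1 in shock replicate 2 stood at 168 CPM, with the other 5 grafts at 57.8 to 98.9 CPM. Its gap to the next graft, divided by the range of the 6 grafts, was 0.628, just past Dixon's 95% critical value for 6 samples. On the log2 scale the value was 0.498, which is not past it. The levels of 10 genes were looked at, and chance marks about 1 in 20 such groups.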

How the results depend on the processing

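Hk2, Pfkfb3, Slc2a1, Ndrg1 and Pgk1 passed as higher in grafts, and in each graft group against naive lungs, under every alternative run, while Ldha, Pdk1 and Egln3 crossed the threshold in some. The cause was not tested. Over leave-one-out fits, 5 to 8 of the 10 genes passed in all grafts, 8 of them without naive replicate 3. In these fits 2717 to 3634 of all genes passed as higher and 2086 to 3498 as lower, of 16049 to 16249 tested. Without naive replicate 3 these numbers were 3032 and 2403 of 16079. The labels give no pairing of libraries by replicate number. Same-numbered libraries of different groups correlated at -0.394 to 0.096 in their deviations from group means, and differently numbered ones at -0.359 to 0.32. With 3 libraries per group such correlations cannot show whether a pairing existed. With the number as a replicate block 3237 of 15834 genes passed as higher in all grafts and 2874 as lower. Of the 10 genes 5 passed there, Ldha being lost (0.49, adjusted p = 0.0512), and Pfkfb3 in shock against cold-ischemia grafts turned to 0.009. That difference was 0.003 with DESeq2 size factors and 0.003 with the DESeq2 test, and Bnip3 in shock grafts against naive lungs was -0.023 with upper-quartile scaling. With library totals only Bnip3 was at -0.074 in all grafts, -0.004 in cold-ischemia grafts and -0.143 in shock grafts. Genes called between shock and cold-ischemia grafts numbered 8 with the DESeq2 test, 124 with the grouping of the deposited tables and 39 without both disputed libraries. With the grouping of the deposited tables that difference was 0.165 for Hk2, -0.094 for Pgk1, 0.012 for Egln3 and -0.569 for Ndrg1, and without both disputed libraries 0.105 for Hk2, -0.018 for Pgk1 and -0.361 for Ndrg1. Leaving out each library in turn, it ran from -0.230 to 0.087 for Hk2, -0.126 to 0.134 for Pfkfb3, -0.071 to 0.228 for Pgk1, -0.137 to 0.123 for Ldha, -0.191 to 0.060 for Bnip3, -0.227 to 0.068 for Egln3, -0.195 to 0.486 for Ndrg1 and -0.003 to 1.248 for Ankrd37. Restricting the fit to the groups compared gives no separate value for all grafts against naive lungs. Depth limits Ankrd37, with 5 to 35 reads in a library.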
